A study of Mus musculus with 6 samples.

Results

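The telocyte and Hedgehog pathway genes *Foxl1*, *Foxf1*, *Pdgfra*, *Gli1*, *Gli2*, *Ptch1*, *Hhip*, *Ihh*, *Shh* and *Smo* were picked by name and make up 10 of the 48440 genes in each expression table. They were picked with earlier results of these data known. RNA-seq was run on adenomas of the small intestine from *Apc* Min mice in which Paneth cells (PCs) had been deleted or not, to see how their loss bears on the adenoma. The *Apc* Min, PC del libraries are QC3, QC8 and QC10, and the *Apc* Min libraries are QC4, QC5 and QC6. The labels give a C57BL/6 background and an age above 42 days for all 6, and by the methods of the study adult animals of both sexes were used. Every mouse carried the *Apc* Min allele. By the study's methods, PC del animals had Cre knocked into the *Defa4* locus and 1 *Rosa26* copy with a diphtheria toxin A cassette that Cre turns on, and littermate controls had the *Rosa26* cassette without Cre. Cre is thus driven by a gene of the PC lineage, and the *Defa4-Cre* allele was made in 129/svJ embryonic stem cells and backcrossed. The labels do not say that the libraries of a group came from separate mice, so p-values measure the spread between these samples. The tissue is whole adenoma, in which fewer cells of a type and less RNA per cell cannot be told apart. The depth was alike, with 5.407 to 5.876 gigabases of aligned sequence in a library.

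Hedgehog signalling in the gut runs from epithelium to stroma. Ihh and Shh are secreted by epithelial cells and bind Ptch1 on mesenchymal cells, which frees Smo to activate the Gli transcription factors, and *Gli1*, *Ptch1* and *Hhip* are themselves induced by the signal. Telocytes are subepithelial mesenchymal cells marked by *Foxl1* and high *Pdgfra* that supply Wnt and BMP ligands to the crypt and villus, and Foxl1 and its neighbour Foxf1 are forkhead factors of gut mesenchyme that lie downstream of Hedgehog.

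In *Apc* Min, PC del adenomas, 5 of the 10 genes, *Foxl1*, *Foxf1*, *Pdgfra*, *Gli1* and *Gli2*, had a level in FPKM (fragments for each kilobase of a transcript, relative to library size) above that of every *Apc* Min adenoma. The ligands, the receptor *Ptch1*, *Smo* and *Hhip* overlapped between the genotypes. The ratio of the mean FPKM levels in *Apc* Min, PC del over *Apc* Min adenomas was 1.61 for *Pdgfra*, 1.67 for *Gli2*, 1.49 for *Foxl1*, 1.40 for *Gli1* and 1.37 for *Foxf1*. Over the 27208 genes above 0 in at least 1 library, 5.30% were higher in *Apc* Min, PC del adenomas without overlap. Of the 7 genes that reached a mean FPKM of 1, 3 were higher without overlap, beside 6.00% of the 14240 genes at that level, and 0 were lower without overlap, beside 1.54%. The split of such genes over the whole table, 854 higher and 219 lower, depends on scaling. It was 1451 and 118 among genes that reached a mean TPM of 1, 532 and 477 with quantile normalization, and 559 and 530 after centring every library on its median. None of the 10 genes passed an adjusted p of 0.05 in limma, where 0.0140% of the 14240 genes did. At an unadjusted limma p under 0.05, 3 of the 7 genes were higher, beside 2.70% of the 14240. With n = 3 per genotype the exact two-sided permutation test cannot go below p = 0.1, so a single gene cannot pass 0.05 by it.

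**Figure D1:**
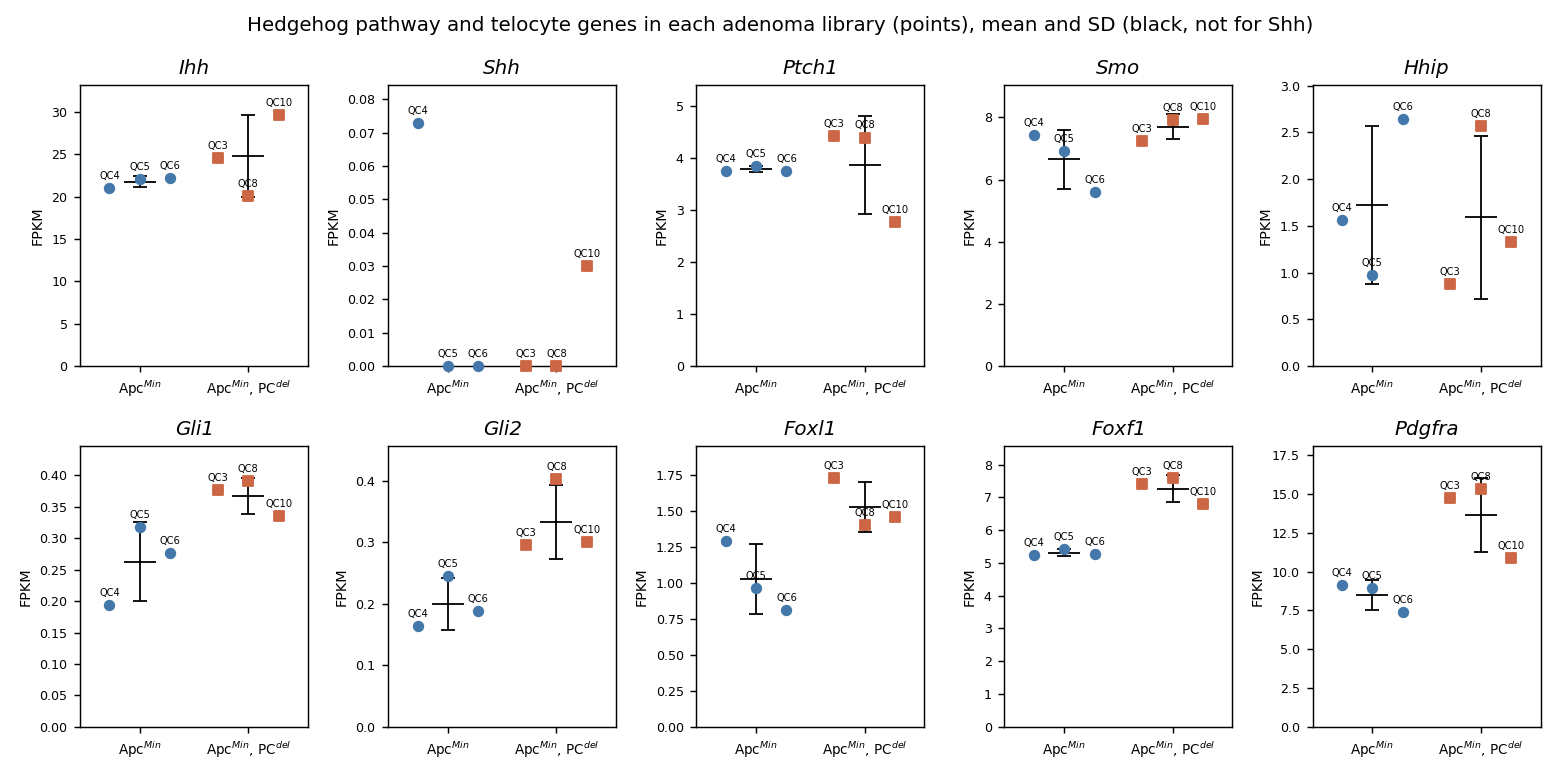
Level in FPKM of each of the 10 genes in the 3 *Apc* Min libraries (circles) and the 3 *Apc* Min, PC del libraries (squares), on linear axes from 0, with the mean and SD of each genotype in black except for *Shh*, which was listed at 0 in 4 libraries. *Gli1*, *Gli2*, *Foxl1*, *Foxf1* and *Pdgfra* sit higher in each *Apc* Min, PC del library than in any *Apc* Min library, and the other 5 genes overlap.

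One *Apc* Min library, QC6, stood apart from the rest. Its median Spearman correlation with the other 5 libraries over 14240 genes was 0.960, against 0.969 to 0.973 for the others, and its genes lay at a median of -0.13 on the log2 scale from the mean of the 6 libraries. Without QC6, the same 5 of the 10 genes did not overlap. Of 26821 genes above 0 in that setting, 2622 (9.78%) were higher and 2639 lower without overlap. Among the 14264 genes that reached a mean FPKM of 1, there were 1617 higher (11.3%) and 1761 lower without overlap. As a check of the genotype, the summed level of 5 PC markers (*Defa21*, *Defa22*, *Lyz1*, *Mptx2* and *Ang4*) was 1519, 2503 and 1272 FPKM in *Apc* Min, PC del adenomas QC3, QC8 and QC10 and 2194, 3480 and 4142 FPKM in *Apc* Min libraries QC4, QC5 and QC6. The sum overlapped between the genotypes (exact two-sided permutation test, p = 0.2). *Defa21*, *Defa22* and *Lyz1*, 3 of the 5 markers, were lower in every *Apc* Min, PC del library than in any *Apc* Min library, beside 1.54% of all tested genes. Their ratios of the mean FPKM levels were 0.116, 0.135 and 0.515. *Ang4* had a ratio of 1.01 and ranged from 62.3 to 1173 FPKM over the 6 libraries.

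The order of the mean FPKM levels over the 6 libraries ran from *Ihh* (23.3) through *Pdgfra* (11.1), *Smo* (7.17), *Foxf1* (6.29), *Ptch1* (3.82), *Hhip* (1.66), *Foxl1* (1.28), *Gli1* (0.315) and *Gli2* (0.266) to *Shh* (0.017). The libraries' ranges did not overlap between *Ihh* and *Pdgfra*, between *Foxf1* and *Ptch1*, between *Ptch1* and *Hhip*, between *Foxl1* and *Gli1* or between *Gli2* and *Shh*. The other neighbours in this order, such as *Smo* and *Foxf1*, overlapped in range.

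*Ihh* (chromosome 1, 74945315 to 74951672 in GRCm38, minus strand) was the most abundant of the 3 Hedgehog ligands in these adenomas. Its level was 21.0, 22.0 and 22.2 FPKM in *Apc* Min libraries QC4, QC5 and QC6, and 24.6, 20.1 and 29.7 FPKM in *Apc* Min, PC del adenomas QC3, QC8 and QC10. The *Apc* Min libraries lay close together, while the *Apc* Min, PC del libraries held both the lowest and the highest value. The means were 21.8 ± 0.626 and 24.8 ± 4.81 FPKM (SD, n = 3), and the log2 fold change of FPKM + 1 in *Apc* Min, PC del over *Apc* Min adenomas was 0.16 (limma adjusted p = 1.0, standard error 0.15). Without QC8, the lowest library, every *Apc* Min, PC del library was above the *Apc* Min libraries, beside 9.30% of all tested genes in that setting. The log2 fold change was then 0.30, and without QC10 it was 0.03. *Shh* (chromosome 5, 28456815 to 28467256, minus strand), the other ligand among the 10, was listed at 0.073 FPKM in *Apc* Min library QC4, at 0.030 FPKM in *Apc* Min, PC del library QC10 and at 0 in the other 4 libraries. No difference in *Shh* can be read at this level, where the mean read coverage was at most 0.417 reads per base.

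*Ptch1* (chromosome 13, 63508328 to 63573598, minus strand), the Hedgehog receptor and also a target of the pathway, was at 3.74, 3.84 and 3.74 FPKM in *Apc* Min libraries QC4, QC5 and QC6. In *Apc* Min, PC del adenomas QC3, QC8 and QC10 its level was 4.42, 4.39 and 2.76 FPKM. QC3 and QC8 were above and QC10 was below all *Apc* Min libraries. The log2 fold change was 0.01 (95% confidence interval -0.38 to 0.39, limma adjusted p = 1.0), an interval that holds differences in both directions. Without QC10, the lowest library, it was 0.18, with both remaining *Apc* Min, PC del libraries above the *Apc* Min libraries. In that setting 15.7% of all tested genes were higher without overlap. *Smo* (chromosome 6, 29735503 to 29761365, plus strand), the transducer that Ptch1 restrains, was at 7.43, 6.91 and 5.61 FPKM in *Apc* Min libraries QC4, QC5 and QC6 and at 7.24, 7.92 and 7.93 FPKM in *Apc* Min, PC del adenomas QC3, QC8 and QC10. QC6 was the lowest, and QC4 lay above QC3 (log2 fold change 0.19, limma adjusted p = 1.0, standard error 0.12). Without QC6 the *Smo* log2 fold change was 0.09. Without QC4, or without QC3, the libraries that overlapped, every remaining *Apc* Min, PC del library was above the remaining *Apc* Min libraries, with 0.27 and 0.23. In these settings 13.4% and 11.8% of all tested genes were higher without overlap. *Hhip* (chromosome 8, 79965851 to 80058006, minus strand), a membrane protein that binds and sequesters Hedgehog ligands, varied more within a genotype than between them. It was at 1.56, 0.972 and 2.64 FPKM in *Apc* Min libraries QC4, QC5 and QC6 and at 0.877, 2.57 and 1.33 FPKM in *Apc* Min, PC del adenomas QC3, QC8 and QC10. High and low libraries occurred in both groups (log2 fold change -0.08, 95% confidence interval -0.81 to 0.65, limma adjusted p = 1.0). The order of the libraries differed by coverage per aligned gigabase, a measure added after the data were seen, with 0.771, 0.972 and 1.42 in QC4, QC5 and QC6 and 0.353, 1.43 and 0.923 in QC3, QC8 and QC10, and the genotypes overlapped there too.

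The Gli transcription factors were expressed at low levels. *Gli1* (chromosome 10, 127329889 to 127341589, minus strand), a direct target whose RNA is widely used as a readout of the pathway, was at 0.194, 0.317 and 0.276 FPKM in *Apc* Min libraries QC4, QC5 and QC6. In *Apc* Min, PC del adenomas QC3, QC8 and QC10 its level was 0.377, 0.391 and 0.336 FPKM. Every *Apc* Min, PC del library was above every *Apc* Min library, but QC5 and QC10, the closest pair, lay nearer to each other than the SD of either genotype (0.063 and 0.029 FPKM). *Gli2* (chromosome 1, 118834132 to 119053619, minus strand), the main activator downstream of Smo, was at 0.164, 0.246 and 0.188 FPKM in *Apc* Min libraries QC4, QC5 and QC6 and at 0.296, 0.404 and 0.300 FPKM in *Apc* Min, PC del adenomas QC3, QC8 and QC10. The genotypes did not overlap, and QC8 was the highest. Both genes fell short of the mean FPKM of 1 that the test required, and in the same limma fit without that filter the log2 fold changes of FPKM + 1 were 0.12 for *Gli1* (standard error 0.05, adjusted p = 0.991) and 0.15 for *Gli2* (standard error 0.05, adjusted p = 0.991). At these levels the added 1 sets the size of the log2 fold change, which was 0.38 for *Gli1* and 0.53 for *Gli2* with 0.1 added instead. The mean read coverage was 1.11 to 2.19 reads per base for *Gli1* and 0.237 to 0.571 for *Gli2*. By coverage per aligned gigabase *Gli2* overlapped between the genotypes (0.062 in *Apc* Min library QC5 and 0.055 in *Apc* Min, PC del library QC10). *Gli1* overlaps *Arhgap9* on the opposite strand, which reached 3.13 FPKM, and strand use in the authors' assignment of reads is not given in the sources used here.

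*Pdgfra* (chromosome 5, 75152292 to 75198215, plus strand), the receptor tyrosine kinase that marks telocytes at high level and other fibroblasts at lower level, had the largest log2 fold change of FPKM + 1 among the 10 genes, a scale that shrinks the differences of low genes, while its ratio of means was below that of *Gli2*. Its level was 9.14, 8.92 and 7.40 FPKM in *Apc* Min libraries QC4, QC5 and QC6, and 14.7, 15.3 and 10.9 FPKM in *Apc* Min, PC del adenomas QC3, QC8 and QC10. The genotypes did not overlap, and QC10 was the lowest of the *Apc* Min, PC del libraries. The means were 8.49 ± 0.946 and 13.6 ± 2.39 FPKM (SD, n = 3), and the log2 fold change was 0.62 (limma adjusted p = 1.0, standard error 0.15). By coverage per aligned gigabase the genotypes did not overlap either, and the ratio of the means was 1.46 in place of 1.61.

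*Foxf1* (chromosome 8, 121084386 to 121088144, plus strand) was at 5.23, 5.42 and 5.28 FPKM in *Apc* Min libraries QC4, QC5 and QC6 and at 7.41, 7.58 and 6.81 FPKM in *Apc* Min, PC del adenomas QC3, QC8 and QC10. The gap between the genotypes was wider than the range within either. The log2 fold change was 0.39 (limma adjusted p = 1.0), and its standard error of 0.09 was the smallest among the 7 genes tested. *Foxl1* (chromosome 8, 121127940 to 121130644, plus strand), the defining telocyte gene, was at 1.29, 0.967 and 0.815 FPKM in *Apc* Min libraries QC4, QC5 and QC6 and at 1.73, 1.40 and 1.46 FPKM in *Apc* Min, PC del adenomas QC3, QC8 and QC10. The genotypes were close at *Apc* Min library QC4 and *Apc* Min, PC del library QC8 but did not overlap (log2 fold change 0.33, limma adjusted p = 1.0, standard error 0.13). With quantile normalization *Foxl1* overlapped, which left 4 of the 10 genes without overlap.

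*Foxf1* and *Foxl1* are neighbours, 39795 bases apart on chromosome 8. Of the genes between or beside them, *Fendrr*, a long noncoding RNA that starts beside *Foxf1* on the other strand, was at 0.457 to 1.37 FPKM, *Mthfsd* at 7.84 to 10.9 FPKM and *Foxc2*, a further forkhead gene, at 0.099 to 0.248 FPKM. In these 3 genes the genotypes overlapped.

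Little of the transcript sequence of 9 of the 10 genes is shared with other annotated genes. Of the 31-base stretches of their transcripts, between 0% (*Gli2* and *Ihh*) and 5.57% (*Pdgfra*) occur in another gene, against 25.5% for *Shh*.

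The other genes of the pathway were counted from lists by role. These lists and the marker lists below were also chosen with earlier results of these data known, so their counts are not independent support. Of 6 genes for making and releasing Hedgehog ligands, 2 were tested, and 1, *Scube1*, which helps to release the lipid-bearing ligand, was higher in every *Apc* Min, PC del library than in any *Apc* Min library (2.56 ± 0.259 against 3.64 ± 0.176 FPKM, SD, n = 3, log2 fold change 0.38). *Dhh*, the further ligand in this list, was at a mean of 0.958 FPKM in *Apc* Min and 0.837 FPKM in *Apc* Min, PC del adenomas. Of 3 tested surface proteins, the coreceptor *Boc* (ratio of the mean FPKM levels 1.39) was the 1 without overlap and was higher in *Apc* Min, PC del adenomas, and the coreceptor *Lrp2* was listed at 0 in all 6 libraries. Of 10 tested transduction genes, *Csnk1a1*, a kinase that phosphorylates Gli proteins and beta-catenin, was the 1 without overlap (83.3 and 92.3 FPKM on average). Of 8 tested genes of the primary cilium, through which Smo signals, 2 did not overlap, *Ift80* (1.52 and 2.41 FPKM on average) and *Kif3a* (3.92 and 4.73 FPKM). These counts stand beside the 6.00% of all tested genes that were higher without overlap, and with so few genes in a list 1 or 2 such genes say little. The median log2 fold change of the tested genes was 0.13 for release, 0.21 for surface proteins, 0.06 for transduction and 0.16 for the cilium, beside 0.19 for the 7 tested genes of the 10 and 0.04 for all 14240 genes. None of the genes of these lists passed the adjusted threshold in limma.

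Known stromal targets of Hedgehog were counted in the same way. Of 8 tested, 5 were higher in every *Apc* Min, PC del library without overlap and 0 lower, beside 6.00% and 1.54% of all tested genes, with a median log2 fold change of 0.27. They were *Bmp5* (2.91 ± 0.187 against 4.69 ± 0.385 FPKM, SD, n = 3, log2 fold change 0.54, limma adjusted p = 0.979) and *Bmp2* (5.48 ± 0.29 against 8.06 ± 1.06 FPKM, log2 fold change 0.48), which encode BMP ligands, and the transcription factors *Foxf2*, *Nkx2-3* and *Tcf21* (log2 fold changes 0.35, 0.18 and 0.17). *Bmp5* was at 2.77, 2.83 and 3.12 FPKM in *Apc* Min libraries QC4, QC5 and QC6 and at 4.25, 4.97 and 4.85 FPKM in *Apc* Min, PC del adenomas QC3, QC8 and QC10. Its gap between the genotypes was wider than the range within either. *Osr1*, not tested for its low level, did not overlap either (0.242 and 0.371 FPKM on average). The count of 6 with *Osr1* was 4 to 6 with TPM, quantile normalization or median centring.

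Of 13 tested telocyte markers other than *Foxl1* and *Pdgfra*, 3 did not overlap, beside the 6.00% of all tested genes, and each was higher in *Apc* Min, PC del adenomas. They were *Bmp5*, also counted among the targets, *Nrg1*, a ligand of ERBB receptors (4.92 ± 1.2 against 7.72 ± 1.18 FPKM, SD, n = 3, log2 fold change 0.57), and *Ednrb*, an endothelin receptor (3.02 ± 0.096 against 4.03 ± 0.358 FPKM, log2 fold change 0.32). The median log2 fold change of the 13 was 0.11, and 9 of them were above 0, beside 8983 of all 14240 tested genes. *Dll1*, *Agt*, *Sox6* and *Wnt5b* were below 0 (-0.09, -0.02, -0.02 and -0.01) and overlapped. *Vstm2a*, another marker, was listed at 0 in 5 libraries and at 0.018 FPKM in *Apc* Min, PC del library QC10, and *Wnt5a*, *F3*, *Bmp3* and *Bmp7* were among the 10 that overlapped. Of 7 tested trophocyte markers, which belong to *Cd81*-positive fibroblasts beneath the crypts, *C3*, the central complement component, was the 1 without overlap, at 9.58, 9.12 and 9.23 FPKM in *Apc* Min libraries QC4, QC5 and QC6 and at 20.8, 29.5 and 11.4 FPKM in *Apc* Min, PC del adenomas QC3, QC8 and QC10. QC10 lay close to the *Apc* Min libraries.

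Markers of stroma at large were counted too. Of 12 fibroblast markers, 11 had a higher mean in *Apc* Min, PC del adenomas, beside 8983 of all 14240 tested genes, and 3 did not overlap, beside 6.00%, *Dcn* (98.5 and 150.6 FPKM on average), *Col6a1* (15.5 and 22.1 FPKM) and *Col6a2* (15.7 and 21.4 FPKM), with a median log2 fold change of 0.29. With quantile normalization the count was 2. Their summed level was 351.7, 374.8 and 305.1 FPKM in *Apc* Min libraries QC4, QC5 and QC6 and 489.0, 477.2 and 331.1 FPKM in *Apc* Min, PC del adenomas QC3, QC8 and QC10, of which *Dcn* made up 32.1%. The sum in QC10 lay within the *Apc* Min range, and the genotypes overlapped (exact two-sided permutation test, p = 0.3). All 9 smooth muscle markers had a higher mean in *Apc* Min, PC del adenomas, beside the same 8983 of 14240 genes, and all overlapped, with a median log2 fold change of 0.30. Their sum was 236.5, 380.3 and 366.1 FPKM in QC4, QC5 and QC6 and 383.6, 488.2 and 346.9 FPKM in QC3, QC8 and QC10, with *Tagln*, *Acta2* and *Actg2* the most abundant. QC4 was low and QC8 high (exact two-sided permutation test, p = 0.4). The 9 epithelial markers, led by *Krt8*, *Krt19* and *Krt20*, had a median log2 fold change of 0.04, and their sum overlapped (6892 ± 1032 against 7101 ± 869.2 FPKM, SD, n = 3, exact two-sided permutation test, p = 0.7). The part that a different share of stroma in the adenoma may have in the higher *Pdgfra*, *Foxf1*, *Foxl1*, *Gli1* and *Gli2* levels was not tested.

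**Figure D2:**
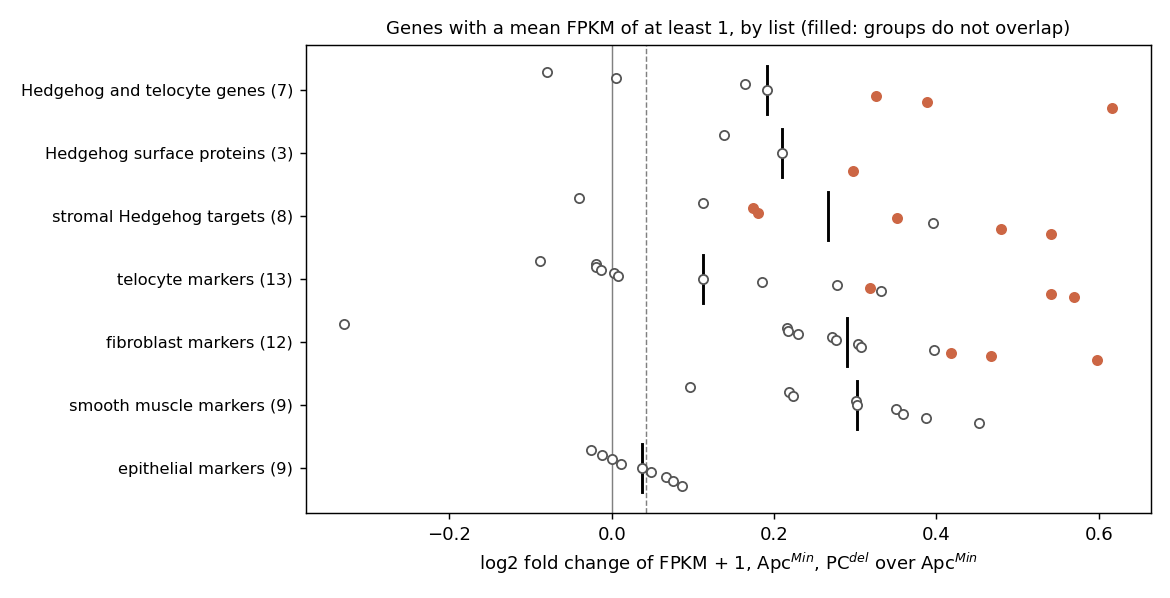
Log2 fold change of FPKM + 1 in *Apc* Min, PC del over *Apc* Min adenomas for each gene that reached a mean FPKM of 1 (number per list in brackets), with genes whose genotypes do not overlap filled, the median of each list as a black bar, 0 as a solid line and the median of all 14240 genes (0.04) as a dashed line. The list medians lie at 0.29 for fibroblast, 0.30 for smooth muscle, 0.11 for telocyte and 0.04 for epithelial markers.

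Set against the summed fibroblast markers of the same library, *Pdgfra* was higher and *Ptch1* lower in *Apc* Min, PC del adenomas. The share of all genes whose ratio to this sum does not overlap was not computed, so these ratios have no background beside them. The level of *Pdgfra* was 2.60%, 2.38% and 2.43% of the fibroblast sum in *Apc* Min libraries QC4, QC5 and QC6 and 3.01%, 3.20% and 3.29% in *Apc* Min, PC del adenomas QC3, QC8 and QC10. Every *Apc* Min, PC del library was above every *Apc* Min library, QC10 included (difference of mean log2 ratio 0.36, exact two-sided permutation test, p = 0.1, which is the lowest that n = 3 per genotype allows). The level of *Ptch1* was 1.06%, 1.02% and 1.23% of the fibroblast sum in QC4, QC5 and QC6 and 0.904%, 0.92% and 0.835% in QC3, QC8 and QC10. Here every *Apc* Min, PC del library was below every *Apc* Min library (difference of mean log2 ratio -0.31, exact two-sided permutation test, p = 0.1). *Ptch1* itself had nearly the same mean in *Apc* Min and *Apc* Min, PC del adenomas (3.77 and 3.86 FPKM). The mean fibroblast sum was 343.9 and 432.4 FPKM, so the lower mean ratio of *Ptch1* comes from the higher sum. With coverage in place of FPKM, added after the data were seen, the differences were 0.21 for *Pdgfra* and -0.39 for *Ptch1*. The genotypes did not overlap, but for *Pdgfra* the gap all but closed, with 1.40% in *Apc* Min library QC4 and 1.41% in *Apc* Min, PC del library QC3, and QC10 stood highest at 1.81%. Against the summed smooth muscle markers, both ratios overlapped between the genotypes. *Foxf1* and *Gli1* overlapped in their ratio to the fibroblast sum (differences of mean log2 ratio 0.14 and 0.20, exact two-sided permutation test, p = 0.5 and p = 0.6). For *Foxf1* this difference was 0.0015 without QC10 and 0.22 without QC3, and without QC6 it was 0.22 and the genotypes did not overlap. For *Gli1* it was -0.02 without QC4 and 0.34 without QC6. *Ihh* in its ratio to the epithelial sum overlapped as well (0.12, exact two-sided permutation test, p = 0.7), with a difference of 0.0328 without QC3 and 0.27 without QC6.

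**Figure D3:**
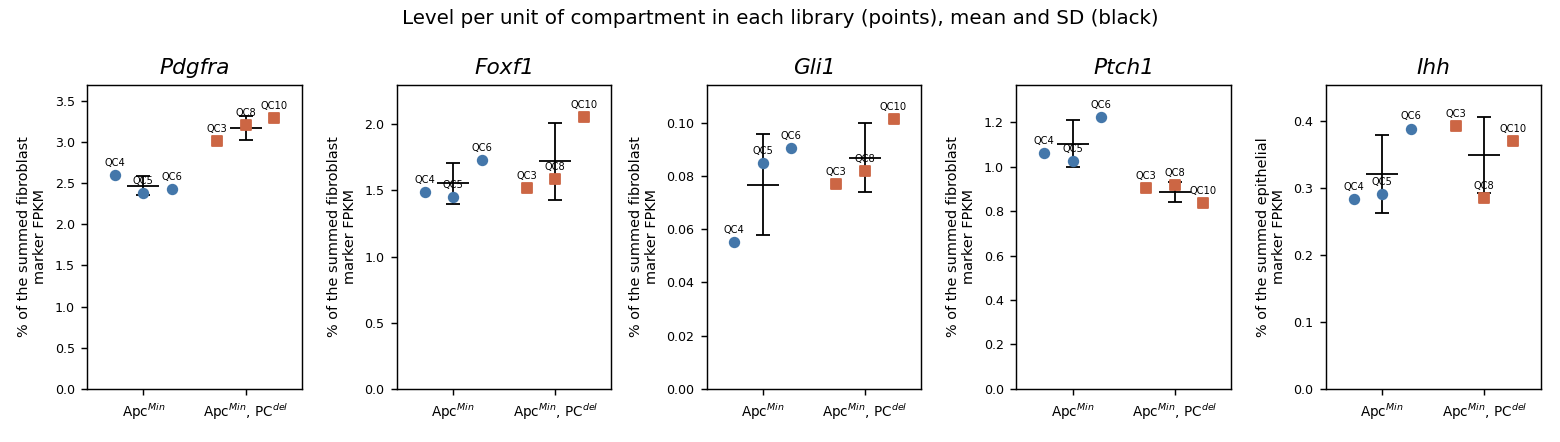
Level of *Pdgfra*, *Foxf1*, *Gli1* and *Ptch1* as a percent of the summed FPKM of 12 fibroblast markers, and of *Ihh* as a percent of that of 9 epithelial markers, in each *Apc* Min library (circles) and *Apc* Min, PC del library (squares), on linear axes from 0, with mean and SD in black. *Pdgfra* lies at 2.38% to 2.60% in *Apc* Min and 3.01% to 3.29% in *Apc* Min, PC del libraries, *Ptch1* is lower in each *Apc* Min, PC del library, and the other 3 genes overlap.

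Across the 6 libraries, the level of a gene was also set against the summed markers of fibroblasts, smooth muscle and epithelium for the 4 genes whose genotypes overlap and that were above 0 throughout (*Ptch1*, *Hhip*, *Ihh* and *Smo*), which made 12 relations. The closest by Spearman's rho was *Ptch1* with the fibroblast sum, with Pearson's r of 0.73 (exact permutation p = 0.0625, 0.458 after Benjamini-Hochberg adjustment over the 12) and rho of 0.94 (exact permutation p = 0.0167, 0.20 adjusted). Without QC3 and QC8, the libraries farthest from the median of the sum, r was 0.26. The closest by r was *Smo* with the epithelial sum, with r of 0.76 (exact permutation p = 0.0764, 0.458 adjusted) and rho of 0.60 (exact permutation p = 0.242, 0.725 adjusted), and r was -0.05 without QC6 and QC3. The same step moved r of other relations away from 0, from 0.37 to 0.95 for *Ptch1* with the smooth muscle sum, from -0.51 to -0.95 for *Ptch1* and from 0.28 to 0.92 for *Ihh* with the epithelial sum, and from -0.23 to -0.90 for *Hhip* with the fibroblast sum, each then over 4 libraries, so this step decides nothing about any of them. None of the 12 passed after adjustment.

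The genes most like *Pdgfra* over the 6 libraries, by Pearson's r of log2(FPKM + 1) among the genes tested, were *Sgce*, *Cpn1*, *Fgf7*, *Nfya* and *Acsl4* (r of 0.98 to 0.99). Of the other tested genes of the 10, *Foxf1* came at place 82 (r of 0.94), *Foxl1* at 524 (0.85), *Smo* at 1931 (0.70), *Ptch1* at 5205 (0.43), *Ihh* at 9085 (0.06) and *Hhip* at 10796 (-0.15). For *Gli1* they were *Ccl17*, *Ier3*, Gm8995, *Trappc2* and *Egr1* (0.98 to 0.99), and for *Ihh* they were *Pex2*, *Insig2*, Gm43555, *Ltb* and *Vrk3* (0.96 to 0.99). High values were common with 6 libraries, as 70 genes were above 0.95 with *Pdgfra*, 26 with *Gli1* and 11 with *Ihh*. The levels of *Pdgfra* and *Gli1* separate the genotypes, so r with them also holds the difference between the genotypes. These places therefore do not show likeness within a genotype.

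RefSeq promoter windows in GRCm38.p6, from 250 bases before to 50 bases after the start of transcription, were found for 6 of the 10 genes (*Ihh*, *Gli2*, *Pdgfra*, *Smo*, *Hhip* and *Ptch1*). Those of *Pdgfra* and *Gli2*, the genes without overlap between the genotypes that have an entry, are shown, with CG dinucleotides in capitals.
Pdgfra, chr5:75152001-75152300, plus strand: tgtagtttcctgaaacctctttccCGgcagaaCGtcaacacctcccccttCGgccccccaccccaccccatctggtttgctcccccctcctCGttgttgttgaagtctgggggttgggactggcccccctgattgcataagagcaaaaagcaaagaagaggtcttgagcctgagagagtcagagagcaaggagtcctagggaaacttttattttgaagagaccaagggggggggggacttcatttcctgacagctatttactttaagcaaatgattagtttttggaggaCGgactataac
Gli2, chr1:119053570-119053869, minus strand: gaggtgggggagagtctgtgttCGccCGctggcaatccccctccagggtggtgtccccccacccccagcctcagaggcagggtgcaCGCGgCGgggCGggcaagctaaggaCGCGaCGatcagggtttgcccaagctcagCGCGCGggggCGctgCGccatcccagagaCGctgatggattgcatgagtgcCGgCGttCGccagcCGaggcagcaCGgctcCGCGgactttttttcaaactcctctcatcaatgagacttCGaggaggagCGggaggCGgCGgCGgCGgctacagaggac
The *Pdgfra* window holds 5 CG dinucleotides and 51.0% G and C, and the *Gli2* window 28 and 67.3%, against a median of 7 and 52.7% over 32851 windows. The Gli motif GACCACCCA and the forkhead motif GTAAACA, searched on both strands, occur in 0 of the 6 windows, and in 0.253% and 3.65% of all windows. This says only that these letters are not in these windows.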

How the data were processed

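RNA-seq was made by the authors with the TruSeq kit on a HiSeq2500, and their methods name CLC Genomics Workbench and a normalization in MatLab. The authors deposited FPKM per gene, scaled for length and library total, TPM, and each gene's mean coverage by reads. The program behind these tables is not given in the sources used here, and gene positions match GRCm38. FPKM of separate entries of a gene were summed. The genotypes were compared with limma 3.58.1 in R 4.3.3 (lmFit, eBayes with trend) on log2(FPKM + 1), which understates differences of low genes, over the 14240 genes whose mean FPKM was 1 or more, and p-values were adjusted by Benjamini and Hochberg's method with 0.05 as the threshold. *Gli1*, *Gli2* and *Shh* came from the same fit over 27208 genes. The fit was tested on simulated data, in which the moved genes changed more than any of the 10 genes did. That test does not show how well differences of their size would be found. Single values were compared by exact two-sided permutation tests of the 6 libraries. Coverage gave depth, and read numbers were not derived. Of each list, genes without overlap were named, otherwise the 3 most abundant. Of 2 entries of *Itgam*, the higher was used. The 10 genes and the lists were chosen with earlier results of these data known. The result of 1 gene of the surface protein list is not reported here. The paper's RT-qPCR and histology were not analysed here.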

Additional observations from a re-analysis of the deposited data

How the results depend on the processing

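None of the 10 genes passed the adjusted threshold in limma under any alternative tried, with adjusted p between 0.296 (*Foxf1*) and 1.0. The log2 fold changes of *Foxl1*, *Foxf1*, *Pdgfra*, *Gli1*, *Gli2*, *Ihh* and *Smo* stayed positive under all of theirs, from 0.53 to 0.76 for *Pdgfra*, 0.32 to 0.47 for *Foxf1* and 0.25 to 0.55 for *Foxl1*. The count of genes past the threshold was 2, and 1 without the filter, 3 when libraries were weighted by quality, 1 with median centring and 1 to 5 with each library left out in turn. *Ptch1* turned negative with a pseudocount of 0.1 (-0.0001), quantile normalization (-0.0603) and median centring (-0.0441), and ranged from -0.0841 to 0.18 with each library left out. *Hhip* was 0.17 with array quality weights and -0.34 to 0.15 with each library left out, and *Shh* -0.0367 to 0.0142. The ratio of *Gli1* to the fibroblast list was -0.16 with the mean log2 of the list and -0.0212 to 0.34 with each library left out. Without the farthest libraries, r was -0.41 for *Hhip* and -0.26 for *Smo* with smooth muscle, and -0.0457 for *Smo* with epithelium, while it moved away from 0 for others, to 0.95 for *Ptch1* with smooth muscle, -0.95 for *Ptch1* and 0.92 for *Ihh* with epithelium and -0.90 for *Hhip* with the fibroblast list. The cause was not tested.

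The number of the 10 genes without overlap was 4 to 6 under the alternatives added after the data were seen (TPM, quantile normalization, median centring, coverage and each library left out). Of all genes above 0, the share higher without overlap moved too, from 3.47% with quantile normalization to 13.8% without QC10, and the count was 6 only with 1 of QC3, QC4, QC8 or QC10 left out. No paired analysis was possible because no number in the labels is shared by the genotypes. With 3 libraries per genotype the exact test cannot pass 0.05 at any depth, and coverage under 1 read per base limits *Gli2* and *Shh*.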

Other observations

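Mesothelial markers, which line the outer gut wall, did not overlap between the genotypes in 3 of 4 genes, beside 5.30% of the genes above 0 that were higher without overlap. The count was 2 with quantile normalization or median centring. The 3 genes were near the floor of the tables. *Upk3b* was at 0.223 ± 0.107 FPKM in *Apc* Min and 0.564 ± 0.072 FPKM in *Apc* Min, PC del adenomas (SD, n = 3). *Lrrn4* was at 0.119, 0 and 0.072 FPKM in *Apc* Min libraries QC4, QC5 and QC6 and at 0.316, 0.194 and 0.324 FPKM in *Apc* Min, PC del adenomas QC3, QC8 and QC10. *Wt1* stayed at or under 0.083 FPKM. Each of these genes was higher in every *Apc* Min, PC del library, while *Msln*, the most abundant of the 4, overlapped (3.79 ± 1.78 against 4.22 ± 1.09 FPKM, SD, n = 3). None had an adjusted p under 0.05 in limma without the filter on low values.

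Of 7 leukocyte markers, *Adgre1*, a macrophage gene, was the 1 without overlap (2.08 ± 0.379 against 2.98 ± 0.34 FPKM, SD, n = 3), beside 6.00% of all tested genes that were higher without overlap, and with quantile normalization 0 of the 7 were. The median log2 fold change was 0.26. The 7 endothelial markers, with *Eng*, *Pecam1* and *Cdh5* the most abundant, had a median of 0.06, and all overlapped. Of the neural and interstitial cell of Cajal markers, 3 were tested (*Ano1*, *Kit* and *S100b*), with a median of -0.11, and all overlapped.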
